A study of Drosophila melanogaster with 20 samples.

Results

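The genes described here encode the larval serum proteins and their fat body partners: Lsp2 (CG6806), Lsp1alpha (CG2559), Lsp1beta (CG4178), Lsp1gamma (CG6821), Fbp1 (CG17285) and Fbp2 (CG3763). They were taken by exact gene symbol from the deposited expression tables, and all 6 were found among the 13972 genes used. The values came from RNA sequencing of dissected tissues of female Drosophila melanogaster of the wild-type Oregon-R strain. The groups were fat body on a high sugar diet (HSD), fat body on normal food (ND), brain on HSD and brain on ND, with 5 libraries in each of the 4 groups. Age and time on the diet were both listed as 5 days for every library, and no group carried a transgene or mutation. The comparison of diets addressed a sugar-fed fly model of type 2 diabetes, and the fat body is the insect tissue that stores fat and glycogen and secretes most proteins of the hemolymph.

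The larval serum proteins are hexamerins, large storage proteins built from subunits of one protein family. In the larva the fat body secretes them into the hemolymph, takes them back up before metamorphosis through a receptor, and keeps them as protein granules that later supply amino acids to the forming adult. LSP1 is assembled from alpha, beta and gamma subunits and LSP2 from a single kind of subunit, Fbp1 is the ecdysone-induced uptake receptor, and Fbp2 is a fat body protein related to alcohol dehydrogenase. Lsp2 transcripts are also known from the adult fat body.

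Transcript levels were RPKM, read counts scaled by exon length and by the reads mapped in a library, a scale on which levels of different genes can be set side by side. Reads behind each RPKM were recovered from the steps in the values. Libraries held 5.60 to 40.4 M reads in the fat body and 21.7 to 46.3 M reads in the brain. A level of 3 reads was taken as the floor, which covers counting error only, because without molecular identifiers reads are not separate molecules. The fat body libraries HSD 4, ND 4 and ND 5 listed 95 to 401 genes with 1 to 3 reads, against 1065 to 1371 in every other library, so a gene below a few reads there is described only as listed at 0. The labels do not say whether libraries of a group came from different flies, so the p-values speak of the spread among these libraries, part of which may be technical. In bulk tissue, fewer cells of a type and less RNA per cell cannot be told apart. The tissue labels were checked against 13 fat body markers and 10 neuronal markers. Fat body marker RPKM summed to 47247 to 98639 in fat body HSD, 75034 to 171384 in fat body ND, 1568 to 5360 in brain HSD and 1642 to 11736 in brain ND. Neuronal markers summed to 1.70 to 13.0 RPKM in fat body libraries and 1947 to 2755 in brain libraries.

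Lsp2 and Lsp1beta carried nearly all of the storage protein signal, and the other members were at or near the floor. Lsp2 and Lsp1beta together made up 85.8 to 100% of the summed RPKM of the 6 genes in every library. The whole group took 8.08e-05 to 0.00808% of reads in fat body HSD, 0.00496 to 0.102% in fat body ND, 0.000733 to 0.00443% in brain HSD and 0.000562 to 0.121% in brain ND. The lowest of these shares was 9 reads in fat body HSD 4, and the highest was 43413 reads in brain ND 5. Only these 2 of 6 members reached a mean of 1 RPKM in either tissue, the level set for the test across genes. All 6 members exceeded 3 reads in at least 1 library of each tissue.

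**Figure D1:**
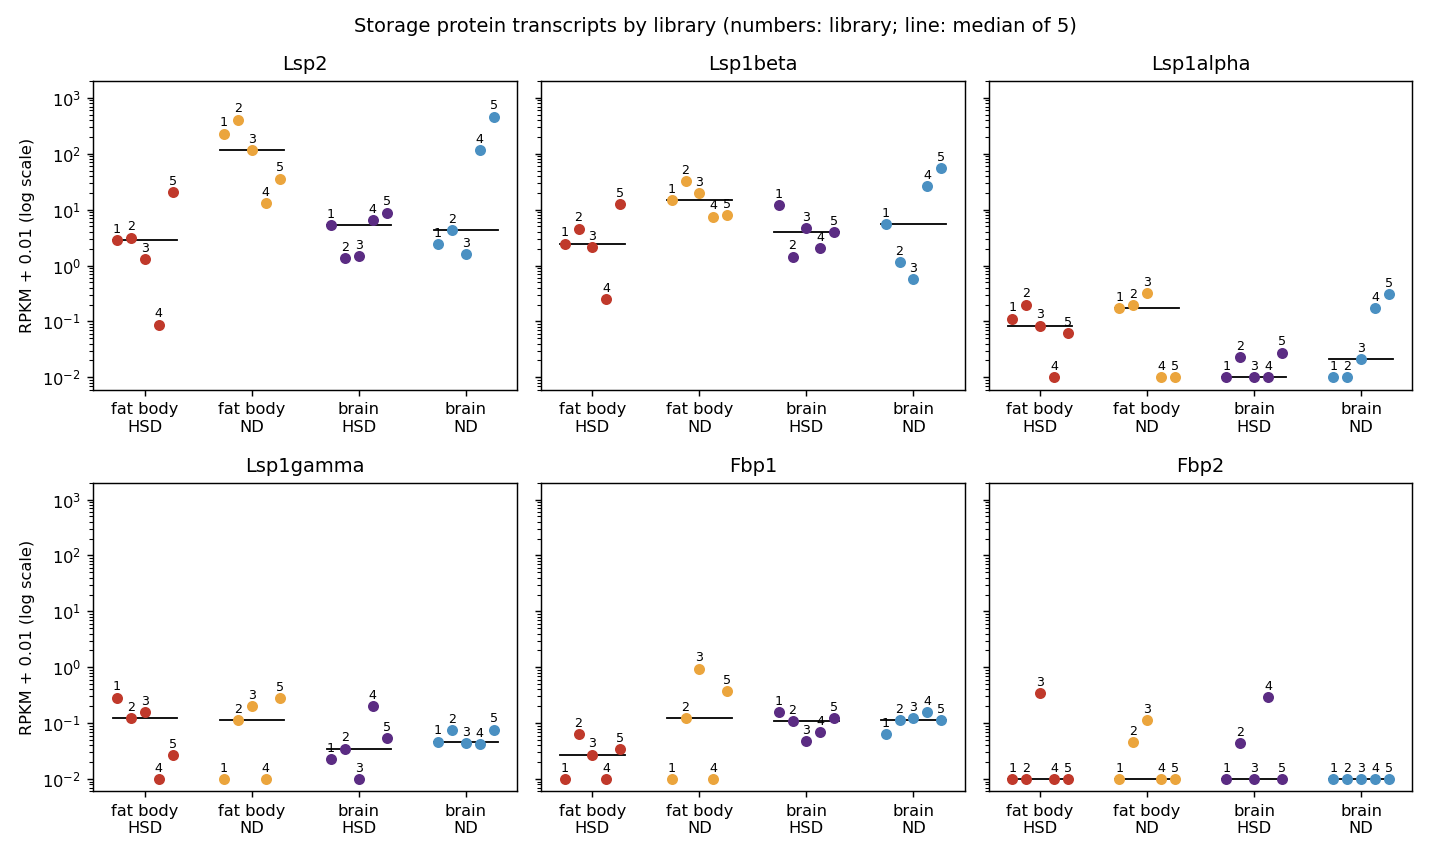
RPKM (log scale, with 0.01 added so that a listed 0 can be drawn) of each of the 6 genes in fat body HSD, fat body ND, brain HSD and brain ND, with each point 1 library numbered by replicate and each line the median of 5. Lsp2 sits between 0.0780 and 20.9 RPKM in fat body HSD and between 13.1 and 406 RPKM in fat body ND, and in brain ND libraries 4 and 5 stand above the other 3.

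Lsp2, the gene of the LSP2 hexamerin, was the most abundant member in fat body ND and was far lower in most fat body HSD libraries. It had 2.80, 3.16, 1.28, 0.0780 and 20.9 RPKM in fat body HSD libraries 1 to 5. It had 230.3, 406, 118, 13.1 and 35.9 RPKM in fat body ND libraries 1 to 5. Of the HSD libraries, 4 of 5 lay below the lowest ND library, and only HSD 5 was higher than ND 4, so the groups overlapped in that pair of libraries. The values rested on 103, 78, 49, 2 and 1126 reads in HSD and on 10631, 28811, 5697, 169 and 3342 reads in ND. HSD 4 was thus below the floor of 3 reads, and the shallowest library, ND 4, still held 169 reads. Mean Lsp2 was 5.64 ± 8.60 RPKM in fat body HSD and 161 ± 162 RPKM in fat body ND (SD, n = 5 each), and the HSD mean was 28.5-fold lower. By median the 4 groups ran 2.80 in fat body HSD, 118 in fat body ND, 5.28 in brain HSD and 4.26 RPKM in brain ND. The libraries of the lowest 3 groups overlapped one another. Those of fat body ND, at 13.1 to 406 RPKM, overlapped fat body HSD and also brain ND, which ran from 1.58 to 463 RPKM.

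On the log2(RPKM + 1) scale the Lsp2 difference, HSD minus ND, was -4.54 ± 0.94 (SE) in the fat body. By limma with Benjamini-Hochberg adjustment over 8223 genes its unadjusted p was 4.31e-04 and its adjusted p was 0.182, so it did not pass the threshold of 0.05. No gene passed in this comparison (0.0% called). At an unadjusted p under 0.05 limma gave 785 genes, of which 1.78% of all genes tested were lower and 7.77% higher, and limma-voom on the recovered reads gave 646, with 0 passing after adjustment. After median-ratio rescaling the unadjusted count was 340, and after quantile normalization it was 461. Among all genes tested Lsp2 had the second lowest fold change, and by p it ranked 19. An exact two-sided permutation test over all 252 assignments of 5 against 5 libraries gave p = 0.0159 for Lsp2 alone, unadjusted, and 0.00794 is the smallest this design allows. Treated as same-numbered pairs, Lsp2 was lower on HSD in 5 of 5, and exact swaps within pairs gave p = 0.0625, the smallest that 5 pairs allow. In libraries 1 to 3 alone the difference was -6.08 and passed by limma with an adjusted p of 0.0218, where 0.134% of genes were called lower. In libraries 4 and 5 alone it was -2.23. Without HSD 5, the HSD library highest in Lsp2, it was -5.17 and passed by limma with an adjusted p of 0.0489. There 0.195% of genes were called lower. HSD 5 was singled out by its Lsp2 value, so this fit is no test of the diet difference. Libraries 1 to 3 leave out HSD 5 as well, together with HSD 4 and with ND 4 and ND 5, the lowest ND libraries in Lsp2. That subset therefore gives no separate test either. Over the 10 fits that each left out 1 library, the adjusted p of Lsp2 by limma ran from 0.0489 to 0.566. It passed only without HSD 5.

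Lsp1beta, an LSP1 subunit gene, ranked the fat body libraries in a similar order, at lower levels on ND. It had 2.45, 4.58, 2.13, 0.241 and 12.4 RPKM in fat body HSD libraries 1 to 5, with 7 to 759 reads. It had 14.7, 32.5, 19.9, 7.47 and 8.09 RPKM in fat body ND libraries 1 to 5, with 109 to 2600 reads. Again 4 of 5 HSD libraries lay below the lowest ND library, and HSD 5 exceeded ND 4 and ND 5. Means were 4.37 ± 4.77 RPKM in HSD and 16.5 ± 10.3 RPKM in ND (SD, n = 5 each), 3.78-fold lower in HSD. The log2 difference, HSD minus ND, was -1.94 ± 0.58 (SE), with an unadjusted p of 0.00601 and an adjusted p of 0.319 by limma. The exact permutation test gave an unadjusted p of 0.0238, and exact swaps within pairs gave 0.125, with 4 of 5 pairs lower on HSD. In libraries 1 to 3 alone the difference was -2.50, and in libraries 4 and 5 alone it was -1.10.

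The mixture of both hexamerins also differed between libraries. The RPKM ratio of Lsp2 to Lsp1beta was 1.14, 0.689, 0.602, 0.323 and 1.68 in fat body HSD libraries 1 to 5. The ratio was 15.6, 12.5, 5.91, 1.75 and 4.43 in fat body ND libraries 1 to 5. Every ND ratio was above every HSD ratio, though HSD 5 at 1.68 and ND 4 at 1.75 lay close together. The HSD 4 ratio rested on 2 reads of Lsp2, below the floor, and 7 reads of Lsp1beta. How often other gene pairs separate in this way was not counted. Across the 10 fat body libraries log2(RPKM + 1) of Lsp2 and of Lsp1beta had a Pearson r of 0.946 and a Spearman rho of 0.976. This is a description only, since both genes were read in the same libraries, which differ in diet and depth.

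The other LSP1 subunit genes were close to the floor. Lsp1alpha had 4, 5, 3, 0 and 3 reads in fat body HSD libraries 1 to 5 and 8, 14, 16, 0 and 0 reads in fat body ND libraries 1 to 5. Lsp1gamma had 11, 3, 6, 0 and 1 reads in fat body HSD and 0, 8, 10, 0 and 27 reads in fat body ND. Both sets of libraries overlapped for both genes. Mean RPKM was 0.0837 ± 0.0703 in HSD and 0.132 ± 0.133 in ND for Lsp1alpha, and 0.110 ± 0.111 in HSD and 0.112 ± 0.118 in ND for Lsp1gamma (SD, n = 5 each). The exact permutation gave p = 0.548 for Lsp1alpha and 1.0 for Lsp1gamma, and a diet difference was not detectable at this depth. The LSP1 subunit genes are related in sequence and only uniquely mapped reads were counted, so how reads of one copy were shared with another is uncertain for Lsp1alpha and Lsp1gamma.

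Fbp1, the storage protein receptor gene, was detected above the floor in 3 fat body ND libraries and in no fat body HSD library. It had 0, 2, 1, 0 and 2 reads in fat body HSD libraries 1 to 5 and 0, 12, 68, 0 and 51 reads in fat body ND libraries 1 to 5. In RPKM the highest fat body HSD value was 0.0537 and the highest fat body ND value was 0.933, in ND 3. The groups overlapped at the listed zeros of ND 1 and ND 4, and the exact permutation gave p = 0.167. Fbp1 thus lay far below Lsp2 in the same libraries, with 0.933 RPKM against 118 RPKM for Lsp2 in ND 3. Fbp2, the alcohol dehydrogenase relative, had 5 reads in fat body HSD 3 and 0 in the other HSD libraries, and 1 and 2 reads in fat body ND 2 and ND 3 and 0 in the other ND libraries. It is given no fold change.

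In the brain the storage protein transcripts were low except in 2 ND libraries. Lsp2 had 5.28, 1.35, 1.46, 6.43 and 8.83 RPKM in brain HSD libraries 1 to 5. It had 2.38, 4.26, 1.58, 116 and 463 RPKM in brain ND libraries 1 to 5. ND 4 and ND 5 lay far above all other brain libraries, and the other ND libraries fell inside the HSD range. The high values rested on 10081 reads in ND 4 and 38260 reads in ND 5, and Lsp2 ranked 165 of all genes in ND 5 by RPKM, against 7374 to 8257 in ND 1 to 3. Lsp1beta had 12.1, 1.44, 4.59, 2.07 and 3.98 RPKM in brain HSD libraries 1 to 5. It had 5.49, 1.14, 0.561, 26.3 and 54.6 RPKM in brain ND libraries 1 to 5, with the same libraries, ND 4 and ND 5, the highest.

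The diet difference in the brain did not pass for either gene. For Lsp2 it was -1.98 ± 1.39 (SE, log2, HSD minus ND) with an unadjusted p of 0.186 and an adjusted p of 1 by limma, and the exact permutation gave p = 0.333. For Lsp1beta it was -0.72 ± 0.96 with an adjusted p of 1 by limma, and the exact permutation gave p = 0.508. No gene of 8910 passed in the brain (0.0% called), with 79 (0.887%) at an unadjusted p under 0.05 by limma and 90 by limma-voom. Without brain ND 4 and ND 5, a choice made after seeing the data, both differences turned to 0.43 for Lsp2 and 0.80 for Lsp1beta. In libraries 1 to 3 alone they were -0.11 for Lsp2 and 1.01 for Lsp1beta, and in libraries 4 and 5 alone -4.77 for Lsp2 and -3.32 for Lsp1beta.

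**Figure D2:**
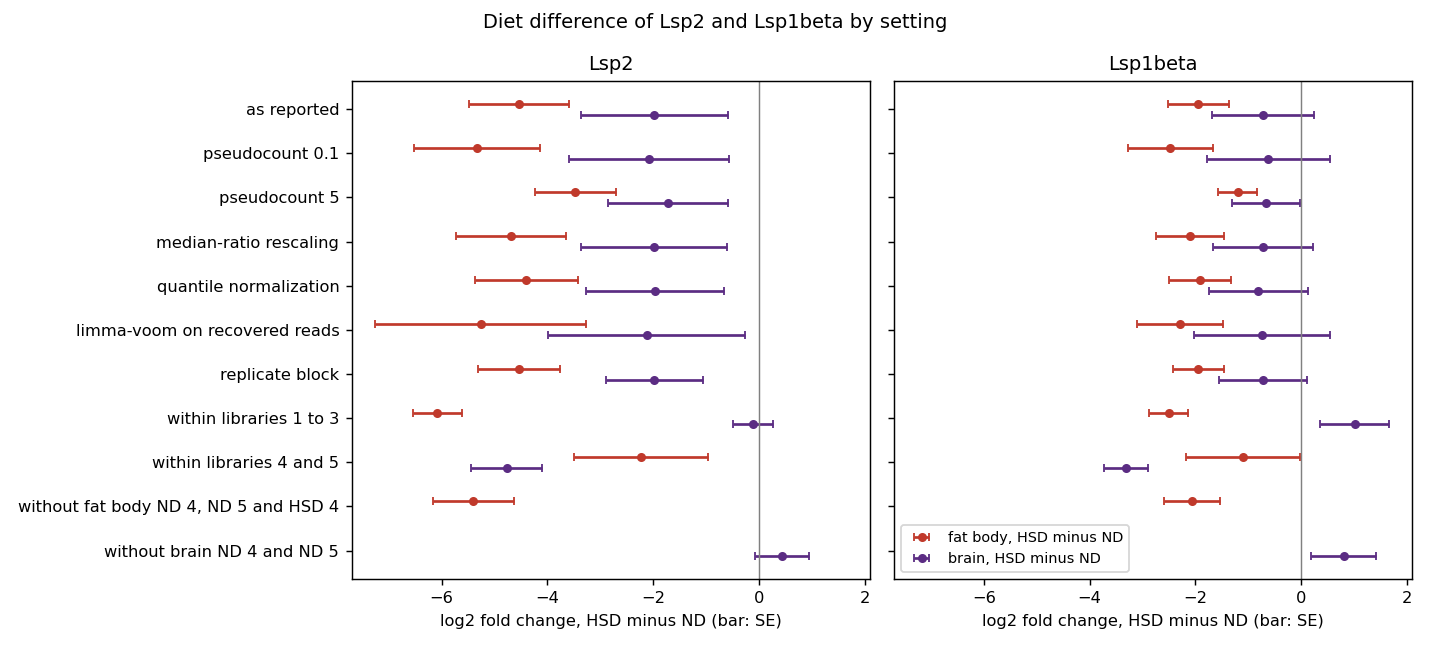
Diet difference (log2 fold change, HSD minus ND, bars SE) of Lsp2 at the left and Lsp1beta at the right, under the reported fit and other settings, for fat body in red and brain in purple. All fat body points lie below 0, with Lsp2 at -6.08 in libraries 1 to 3 alone and -2.23 in libraries 4 and 5 alone, and the brain points cross 0 once brain ND 4 and ND 5 are left out.

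The low members did not all follow Lsp2 in these brain libraries. Lsp1alpha had 0, 1, 0, 0 and 2 reads in brain HSD libraries 1 to 5 and 0, 0, 1, 15 and 26 reads in brain ND libraries 1 to 5, so its highest brain levels were in ND 4 and ND 5. Per 100 Lsp1beta reads this was 0.581 in ND 4 and 0.509 in ND 5. Lsp1gamma had 1, 2, 0, 19 and 5 reads in brain HSD and 2, 4, 3, 3 and 6 reads in brain ND, with HSD 4 the highest. Fbp1 had 16, 11, 3, 8 and 18 reads in brain HSD and 4, 9, 14, 19 and 13 reads in brain ND, an even low level in both diets. Fbp2 had 0, 1, 0, 10 and 0 reads in brain HSD and 0 in all 5 brain ND libraries.

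Fat body markers moved with Lsp2 in some brain libraries. Of the 13 fat body markers found, 11 were highest in ND 5 among the 10 brain libraries, and for 7 of the 13 the highest brain libraries were ND 4, ND 5 and HSD 4. The share of all genes highest in ND 5 was not counted. The marker sum was 5360 RPKM in brain HSD 4, 5014 RPKM in brain ND 4 and 11736 RPKM in brain ND 5. Sums of other cell types differed there too. Hemocyte markers summed to 450 and 596 RPKM in brain ND 4 and ND 5, against 297 to 308 RPKM in ND 1 to 3. Oenocyte markers summed to 171 and 15.7 RPKM, against 2.09 to 3.83 RPKM. Neuronal markers summed to 2567 and 1947 RPKM, against 2563 to 2736 RPKM. The yolk protein gene Yp1 reached 7.72% of its fat body ND median in brain ND 5 and 3.04% in brain ND 4. The lipoprotein gene apolpp, listed as Rfabg, reached 13.2% in brain ND 5 and 10.9% in brain ND 4. The highest shares among markers in brain ND 5 were those of the insulin-like peptide gene Ilp6, at 73.9% in ND 5 and 59.8% in ND 4, and of the alcohol dehydrogenase gene Adh, at 51.2% and 36.3%. These genes were also expressed in brain ND 1 to 3, Ilp6 at 10.8 to 12.0 RPKM and Adh at 874 to 898 RPKM. In ND 4 and ND 5 Ilp6 was at 15.0 and 18.5 RPKM and Adh at 1010 and 1424 RPKM. In ND 1 to 3 apolpp was at 67.9 to 81.8 RPKM, against 145 and 176 RPKM in ND 4 and ND 5. Yp1 was at 144 to 259 RPKM, against 1581 and 4017 RPKM. The marker Fst was at 0 in brain ND 5 and at 245% in brain ND 4, where its level was 0.0778 RPKM. Lsp2 reached 393% of its fat body ND median in brain ND 5 and 98.7% in brain ND 4, and Lsp1beta reached 371% and 179%. In brain HSD 4, set against the fat body HSD median, Yp1 was at 8.23%, apolpp at 14.6%, Lsp2 at 230.0% and Lsp1beta at 84.5%, with Lsp2 at 6.43 RPKM in that library and a median of 2.80 RPKM in fat body HSD. The part of fat body tissue or of other cell types in the Lsp2 level of brain libraries was not tested.

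**Figure D3:**
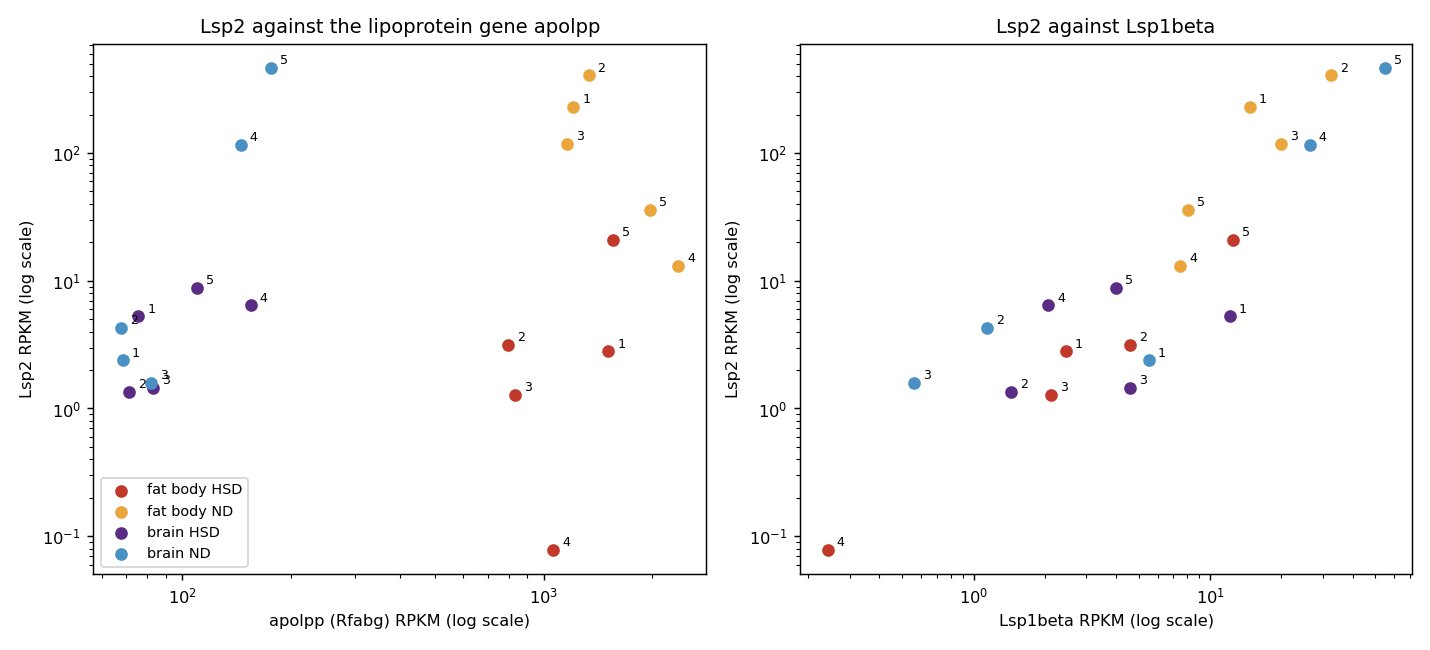
Lsp2 RPKM against apolpp RPKM at the left and against Lsp1beta RPKM at the right, on log axes, with each point 1 library numbered by replicate and coloured by group. Brain ND 4 and ND 5 lie at 116 and 463 RPKM of Lsp2, in or above the range of fat body ND, while their apolpp, 145 and 176 RPKM, is the third highest and the highest of the brain libraries and lies below all fat body libraries.

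Lsp2 was also set against apolpp, a gene that the adult fat body expresses at a high level. Lsp2 per 100 RPKM of apolpp was 0.185, 0.397, 0.154, 0.00734 and 1.34 in fat body HSD libraries 1 to 5. It was 19.1, 30.5, 10.1, 0.555 and 1.82 in fat body ND libraries 1 to 5. It was 6.99, 1.90, 1.76, 4.15 and 8.04 in brain HSD and 3.47, 6.28, 1.94, 80.1 and 263 in brain ND. The 3 highest fat body values were those of ND 1 to 3, and the highest of all were those of brain ND 4 and ND 5.

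Other tissues differed between fat body libraries as well. The 15 ovary and eggshell markers summed to 30.3, 1318, 278, 329 and 1630 RPKM in fat body HSD libraries 1 to 5 and to 7432, 6875, 329, 12664 and 298 RPKM in fat body ND libraries 1 to 5. The 6 oenocyte markers summed to 11352 to 25082 RPKM in fat body HSD and 8467 to 12980 RPKM in fat body ND, with none at 0 in all libraries of a group. Hemocyte markers summed to 498 to 1101 RPKM in fat body HSD and 519 to 725 RPKM in fat body ND. The part of these other cell types in the diet difference of Lsp2 was not tested.

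The comparison of fat body with brain asked where the members are expressed, and on neither diet did Lsp2 or Lsp1beta pass. On normal food the log2 difference, fat body minus brain, was 2.24 ± 1.51 (SE) for Lsp2 with an adjusted p of 0.2, and 0.94 ± 0.93 for Lsp1beta with an adjusted p of 0.374, by limma. In this comparison 23.2% of 9219 genes were called higher and 51.6% lower, or 2140 and 4756 genes. After median-ratio rescaling the split was 2984 higher and 3914 lower, and after quantile normalization 3716 higher and 3248 lower. Brain ND 4 and ND 5, the brain libraries highest in both genes, were also left out, a choice made after seeing the data. By limma Lsp2 was then at 4.65 (adjusted p 0.00415) and Lsp1beta at 2.46 (adjusted p 0.00613), both past the threshold. In that fit 22.2% of genes were called higher. Because those libraries were picked by these values, this fit is no test of where the members are expressed. With only brain ND 5, the brain library highest in Lsp2, left out, Lsp2 passed by limma at 3.39, with an adjusted p of 0.0416. There 23.6% were called higher. That library too was picked by its Lsp2 value. Over the 10 fits that each left out 1 library, the adjusted p of Lsp2 by limma ran from 0.0416 to 0.392. In libraries 1 to 3 alone Lsp2 was at 5.96 (adjusted p 7.08e-05) and Lsp1beta at 3.0 (adjusted p 0.00393) by limma, where 22.5% were called higher. In libraries 4 and 5 alone both turned, Lsp2 to -3.35 (adjusted p 0.0231) and Lsp1beta to -2.15 (adjusted p 0.0121) by limma, where 31.8% were called lower. The first subset leaves out brain ND 4 and ND 5, and the second holds no other brain ND library. Neither subset is therefore a test of where the members are expressed.

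On high sugar the difference between fat body and brain did not pass for either gene. The log2 difference, fat body minus brain, was -0.33 ± 0.73 for Lsp2 with an adjusted p of 0.699 and -0.29 ± 0.62 for Lsp1beta with an adjusted p of 0.688, by limma. Both turned positive after quantile normalization, to 0.55 for Lsp2 and 0.66 for Lsp1beta. Of 9315 genes, 27.2% were called higher and 47.3% lower, or 2531 and 4403 genes. After median-ratio rescaling the split was 3095 higher and 3903 lower, and after quantile normalization 3889 higher and 3299 lower. Without a filter on low values, 2 members near the floor passed by limma, Fbp1 at -0.10 with an adjusted p of 0.0172 and Lsp1alpha at 0.11 with an adjusted p of 0.0452, where 40.2% of genes were called lower and 19.8% higher. The reads behind them were at most 5 per library in fat body HSD, 3 to 18 for Fbp1 in brain HSD, and 0 to 2 for Lsp1alpha in brain HSD.

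The difference of diet effects between tissues, fat body minus brain, was tested over all 20 libraries. It was -2.57 ± 1.80 (SE, log2) for Lsp2 with an adjusted p of 0.846 and -1.22 ± 1.19 for Lsp1beta with an adjusted p of 0.921, by limma. No gene of 9280 passed (0.0% called), with 598 (6.44%) at an unadjusted p under 0.05 by limma and 567 by limma-voom, while median-ratio rescaling left 227 and quantile normalization 281. In libraries 1 to 3 alone the Lsp2 term was -5.97 with an adjusted p of 0.00731 by limma, where 0.63% of genes were called lower. In libraries 4 and 5 alone it turned to 2.54 with an adjusted p of 1. Libraries 1 to 3 leave out brain ND 4 and ND 5, the brain libraries highest in Lsp2, and fat body HSD 5. That subset is therefore no test of whether the diet difference of Lsp2 differs between tissues. All genes together had a median fat body diet difference of 0.19, which median-ratio rescaling brought to -0.01. Lsp2 stood at -4.69 after that rescaling.

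Genes whose pattern across the 10 fat body libraries was most like that of a member were ranked by Pearson r of log2(RPKM + 1) among 6608 genes, as a description. For Lsp2 they were the odorant-binding protein gene Obp99a (r 0.973, Spearman rho 0.915), CG34424 (0.959), CG9510 and CG9515 (0.954 each, with identical values) and the sorbitol dehydrogenase gene Sodh-2 (0.950). Obp99a had a lowest, median and highest value of 172, 188 and 363 RPKM in fat body HSD and of 451, 839 and 1470.2 RPKM in fat body ND, so its groups did not overlap. In this comparison 0.268% of the genes tested were lower on HSD with no overlap. Obp99a was picked here by its likeness to Lsp2 over these same libraries, so that share is no yardstick for it. For Lsp1beta they were CG14630 (r 0.971), Lsp2 (0.946), the glutathione transferase gene GstE9 (0.938), CG33082 (0.930) and CG3999 (0.925). CG14630 had 4.66, 15.6 and 26.9 RPKM in fat body HSD and 27.7, 35.8 and 63.8 RPKM in fat body ND.

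Other proteins that the adult fat body secretes were compared from a fixed list of 15. In the fat body diet comparison 0 of 15 passed by limma. At an unadjusted p under 0.05 by limma, 5 were lower and 0 higher, against 1.78% lower and 7.77% higher of all genes. The list median was -0.02 against 0.19 for all genes. Obp99a averaged 227 ± 78.7 RPKM in fat body HSD and 925 ± 478 RPKM in fat body ND, a log2 difference of -1.91 with an adjusted p of 0.159 by limma. The yolk protein genes Yp3 and Yp2 had differences of -1.12 and -1.43, each with an adjusted p of 0.248 by limma. The iron carrier gene Tsf1 had -1.73 with an adjusted p of 0.263 by limma. In libraries 1 to 3 alone, 4 of the 15 passed by limma, all lower, where 0.134% of all genes were called lower. In the brain 0 of 14 passed, and 0 had an unadjusted p under 0.05 by limma, against 0.887% of all genes. Between tissues, 14 of 15 were higher in the fat body on ND and 14 higher and 1 lower on HSD, by limma, against 23.2% of all genes higher on ND, and 27.2% higher and 47.3% lower on HSD. The lipid carrier gene apolpp stood at 3.94 on ND and 3.53 on HSD, the pattern recognition gene GNBP3 at 5.41 and 5.36, and the lipid transfer gene apoLTP, listed as CG15828, at 3.57 and 3.72. After quantile normalization the list had 12 higher and 1 lower on ND, and 12 higher and 2 lower on HSD.

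Regulators of fat body and ecdysone-responsive genes, a list of 22, were listed because ecdysone drives the larval expression of Fbp1. In the fat body diet comparison 0 of 17 tested passed. By limma 0 had an unadjusted p under 0.05, against 9.55% of all genes. The list median was 0.09 against 0.19 for all genes. The nuclear receptor gene Hnf4 averaged 42.7 ± 4.49 RPKM in fat body HSD and 36.6 ± 7.46 RPKM in fat body ND (adjusted p 0.663 by limma). The fat body GATA factor gene srp averaged 37.2 ± 6.88 RPKM in fat body HSD and 35.4 ± 5.87 RPKM in fat body ND. In the brain 0 of 21 passed, and 0 had an unadjusted p under 0.05 by limma, against 0.887% of all genes. Between tissues, 4 were higher and 16 lower of 21 on ND, and 4 higher and 15 lower on HSD, by limma. Of all genes, 23.2% were higher and 51.6% lower on ND, and 27.2% higher and 47.3% lower on HSD, so most genes called were lower in either case. After quantile normalization the list had 5 higher and 9 lower on ND, and 4 higher and 11 lower on HSD. The nuclear receptor genes Hr46, Hr38 and Eip78C were lower in the fat body, at -4.95, -4.37 and -4.02 on ND. The ecdysone-inactivating enzyme gene Cyp18a1 was higher, at 3.84 on ND.

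Autophagy, lysosome and tissue remodelling genes, of which 19 of 20 were tested, gave 0 passing in the fat body and in the brain diet comparisons, by limma. At an unadjusted p under 0.05 by limma they gave 0 in both, against 9.55% of all genes in the fat body and 0.887% in the brain. Their list median in the fat body was 0.16. Between tissues 8 were higher and 7 lower in the fat body on each diet, by limma, against 23.2% of all genes higher and 51.6% lower on ND and 27.2% higher and 47.3% lower on HSD. Of the prophenoloxidases, enzymes of the same protein family as the hexamerins, PPO2 was found, listed as CG8193. It averaged 19.7 ± 6.93 RPKM in fat body HSD, 15.6 ± 4.89 RPKM in fat body ND, 33.0 ± 3.38 RPKM in brain HSD and 33.4 ± 2.90 RPKM in brain ND. It was lower in the fat body by limma, at -1.10 on ND (adjusted p 3.85e-04) and -0.78 on HSD (adjusted p 0.00691).

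Larval and pupal genes from other tissues, such as cuticle, glue and intermoult genes, were measured beside the storage proteins. Of 22 listed, 21 were found. Their summed RPKM was 0 to 4.03 in fat body HSD, 0 to 5.00 in fat body ND, 5.92 to 7.03 in brain HSD and 5.67 to 8.52 in brain ND. In fat body HSD 10 of 21 were listed at 0 in all 5 libraries, and in fat body ND 15 of 21. Few genes with 1 to 3 reads were listed in ND 4, ND 5 and HSD 4, so these counts cannot be compared between diets. The share of all genes at 0 in every library of a group was not counted. In each fat body group 4 of 21 exceeded 3 reads in at least 1 library. The pupal cuticle gene Pcp averaged 1.07 ± 1.12 RPKM in fat body HSD and 1.67 ± 1.55 RPKM in fat body ND (SD, n = 5 each). The part of larval or pupal RNA in the storage protein levels was not tested.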

How the data were processed

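Poly(A) RNA of fat body and brain was sequenced in 20 libraries, 5 per tissue and diet, and groups follow the labels. The submitters' processing notes name TopHat and the dm3 assembly, without versions. Only reads with a unique position were counted, per the labels. The authors deposited RPKM per gene, with 15080 entries per table, and the counting tool and annotation are not given in the sources used here. Reads were recovered by searching the library totals and gene lengths that make them whole numbers, to within 0.01 of a read for 99.99% of values above 0. Entries of 188 symbols that named several entries (1107 entries) and of 2 symbols that were not in all tables were left out, and 13972 genes were used. No pair of tables was identical (0 found).

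Comparisons used limma (version 3.58.1, with statmod 1.5.0 and R 4.3.3) with a trended prior on log2(RPKM + 1). Genes averaging at least 1 RPKM in the fit were tested, two-sided, with Benjamini-Hochberg adjustment over all genes tested and a threshold of 0.05. This scale understates changes of low genes. Single members were tested by exact permutation of log2(RPKM + 1), unadjusted, in Python 3.11.15. Alternatives were other pseudocounts, no filter, median-ratio and quantile scaling, limma-voom on recovered reads, a replicate block, subsets of libraries and leaving out each library. The fit was tested on simulated data. The 6 members are named whatever their values, with up to 4 genes per list and comparison by smallest p, of which the text gives some, the 5 genes most like each expressed member with a mean of at least 5 RPKM, and cell type markers. The gene srp in the fat body falls outside this rule and was chosen after its values were seen. Members and lists were chosen with earlier results of these data known.

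Whether libraries with the same number deviate together was checked between the 2 diets by correlating their deviations from group means. These were 0.26, 0.15, 0.65, 0.23 and 0.13 in the fat body and 0.44, 0.58, 0.55, 0.3 and 0.66 in the brain. All were above 0.1, so they were treated as pairs in the block fit (no label states a reason for it). The ND library best correlated with an HSD library bore its number only for fat body 3 and 4 and brain 1 and 5. The numbering is therefore not shown to be a pairing. Between tissues the correlations were -0.23 to 0.15, and tissues were not paired. Gene names were checked against RefSeq, and no coordinates are given because the assemblies differ.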

Additional observations from a re-analysis of the deposited data

Results flagged for a closer look

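Of 20 sets of 5 libraries examined for the members, 5 held a library far from the others. The rule flags about 1 in 20 sets by chance only where values are normally distributed. These RPKM were skewed and partly 0, so that rate gives no yardstick for the count. Lsp2 in fat body HSD 5 was 20.9 RPKM, against 3.16 RPKM in the next library of its group. Lsp2 in brain ND 5 was 463 RPKM, against 116 RPKM in the next library. Lsp1gamma in brain HSD 4 was 0.194 RPKM, against 0.0432 RPKM in the next. Fbp2 in fat body HSD 3 was 0.330 RPKM with all other libraries of its group listed at 0, and in brain HSD 4 it was 0.279 RPKM, against 0.0341 RPKM in the next. These last values rest on 19 reads for Lsp1gamma and on 5 and 10 reads for Fbp2. Brain HSD 4 also held photoreceptor markers summing to 2648 RPKM and gut markers summing to 387 RPKM, the highest of all brain libraries for both lists.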

How the results depend on the processing

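In the fat body diet comparison Lsp2 and Lsp1beta were lower on HSD under all alternatives run: Lsp2 lay at -5.34 and -3.47 with pseudocounts of 0.1 and 5 and at -5.26 by limma-voom, and leaving out 1 library gave -5.21 to -4.0 for Lsp2 and -2.38 to -1.52 for Lsp1beta. With the replicate block, which rests on the pairing by number, Lsp2 had an adjusted p of 0.343 by limma, and the block changed no call of a member; exact swaps within pairs gave p = 0.0625 for Lsp2 (-4.54) and 0.125 for Lsp1beta (-1.94). Genes past the threshold in the fat body numbered 16 within libraries 1 to 3, and 0 to 19 on leaving out 1 library, with 19 only without HSD 5. In the brain, Lsp1beta was 1.01 within libraries 1 to 3, and without ND 4 and ND 5 Lsp2 was 0.43 and Lsp1beta 0.80. On normal food, fat body against brain gave 4277 genes within libraries 4 and 5, with Lsp2 at -3.35 and Lsp1beta at -2.15. On high sugar it gave 4613 within libraries 4 and 5, with Lsp1beta at 0.0623, while quantile normalization gave 0.55 for Lsp2 and 0.66 for Lsp1beta. Leaving out 1 library at a time gave -0.95 to 0.13 for Lsp2 and -0.73 to 0.13 for Lsp1beta. The value of 0.13 for each gene was that without fat body HSD 4. The interaction called 277 genes within libraries 1 to 3 and 23 without fat body ND 4, ND 5 and HSD 4, and within libraries 4 and 5 Lsp2 stood at 2.54 and Lsp1beta at 2.21. Subsets hold fewer libraries; the cause of these shifts was not tested. Depth limits Lsp1alpha, Lsp1gamma, Fbp1 and Fbp2, which held at most 68 reads in any library.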
